A study of Mus musculus with 16 samples.

Results

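Diet was compared within visceral fat: 4 RNA libraries of OT-I T cells from visceral fat of mice kept for 8 weeks on a high-fat diet with 60% of its calories from fat (HFD) against 4 libraries of the same cells from visceral fat of lean mice kept for 8 weeks on standard chow. These 8 libraries are all the visceral fat libraries among the 16 of the series, and were chosen by their labels. The other 8 libraries are OT-I T cells of lymph node (LN) on the same diets, 4 for each diet, and enter below in the shared estimate of spread behind every p-value and as the diet difference of another tissue. OT-I mice carry a transgenic T cell receptor for an ovalbumin peptide on MHC class I, an allele that every group shares. The labels give no age and no agent other than diet, and call the replicates biological without saying whether each came from 1 mouse or a pool. One label has the cells freshly isolated, another has an overnight culture ahead of the T cell sort, and they do not explain the term Neg-OVA in the library names. A growth protocol in them describes human cells of another kind, and a pair of library kits and sequencers is named without saying which made these libraries. Levels are counts scaled to library size (CPM) after normalisation by the trimmed mean of M values (TMM), given in the order of replicates 1 to 4. Differences are log2 fold changes of HFD minus lean with their standard error (SE), tested by edgeR's quasi-likelihood method, with p-values adjusted by Benjamini-Hochberg over the 15675 genes tested and called under 0.05. The SEs and p-values rest on the spread within the 4 groups of all 16 libraries, which may be partly technical. For a gene near 0 in LN they therefore do not describe the spread of the visceral fat libraries alone.

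CD8 T cells settle in visceral fat, where they are part of the resident immune population, and their number there is known to grow with obesity. Such cells keep killer proteins in granules, display retention receptors such as CD69 and answer type I and type II interferon. Interferon binding activates the JAK kinases and STAT factors, which with IRF9 switch on a set of antiviral genes, the interferon-stimulated genes, through a short promoter element rich in GAAA. The transcription factor IRF7 is both a product and an amplifier of that response.

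The labelled cell type was checked against its markers. The 14 genes of the CD8 T cell list summed to 16000 to 17500 CPM in the HFD libraries and 14000 to 19000 CPM in the lean ones. Cd4 reached at most 0.091 CPM, Foxp3 0.0228 CPM and the macrophage marker Adgre1 0.0268 CPM, while the adipocyte hormone Adipoq and the macrophage gene C1qa had no count in any of the 8 libraries. Other macrophage markers were present: Cd68 had 26.5, 33.4, 130.6 and 53.1 CPM on HFD and 78.6, 30.5, 27.2 and 18.95 CPM in lean mice, and HFD replicate 1 alone had C1qb at 25.7 CPM and Csf1r at 9.73 CPM. The 18 genes of the macrophage list summed to 33.4 to 131 CPM on HFD and 39.9 to 78.7 CPM in lean mice, and their part in the results was not tested. Cd8a had 1839, 2299, 1956 and 2213 CPM on HFD and 1674, 2023, 1806 and 1858 CPM in lean mice. Cd8b1, the partner chain, had 1149, 1102, 1338 and 1323 CPM on HFD and 1703, 1211, 1077 and 1482 CPM in lean mice. Cd3e, a signalling chain of the receptor complex, had 441, 243, 275 and 399 CPM on HFD and 384, 412, 353 and 365 CPM in lean mice. The diets overlapped for all 3 genes, and edgeR adjusted p was 0.993 for Cd8a, 0.987 for Cd8b1 and 1.0 for Cd3e.

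The libraries held 40212388 to 51726642 counts on HFD and 42993946 to 63617074 counts in lean mice, so 3 counts correspond to 0.05007 to 0.08035 CPM. A gene's count was often missing from single libraries. Taking the genes whose median over the remaining 3 libraries of a group reached 10 CPM, the share at 3 counts or fewer was 11.2%, 5.31%, 11.3% and 4.18% in HFD replicates 1 to 4 and 13.1%, 0.797%, 1.61% and 1.65% in lean replicates 1 to 4. Genes with a count numbered 16935 ± 424 on HFD and 18922 ± 1220 in lean mice (mean ± SD, n = 4 each, exact two-sided permutation p = 0.0857, adjusted p = 0.514 over 6 library measures). Lean replicate 1 stood apart from the other 7 libraries: it lay at 109.3 on the first principal component (35.9% of the variance) where the others lay at or below -7.413, and it had 4.14% of its counts in ribosomal protein genes where the others had 1.72% to 2.91%. List medians that leaving it out turned are given with and without it, as are the values of several genes. Other gene values are given with it alone and may depend on it. Leaving it out changed the sign of 20 of the 146 genes checked.

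**Figure D1:**
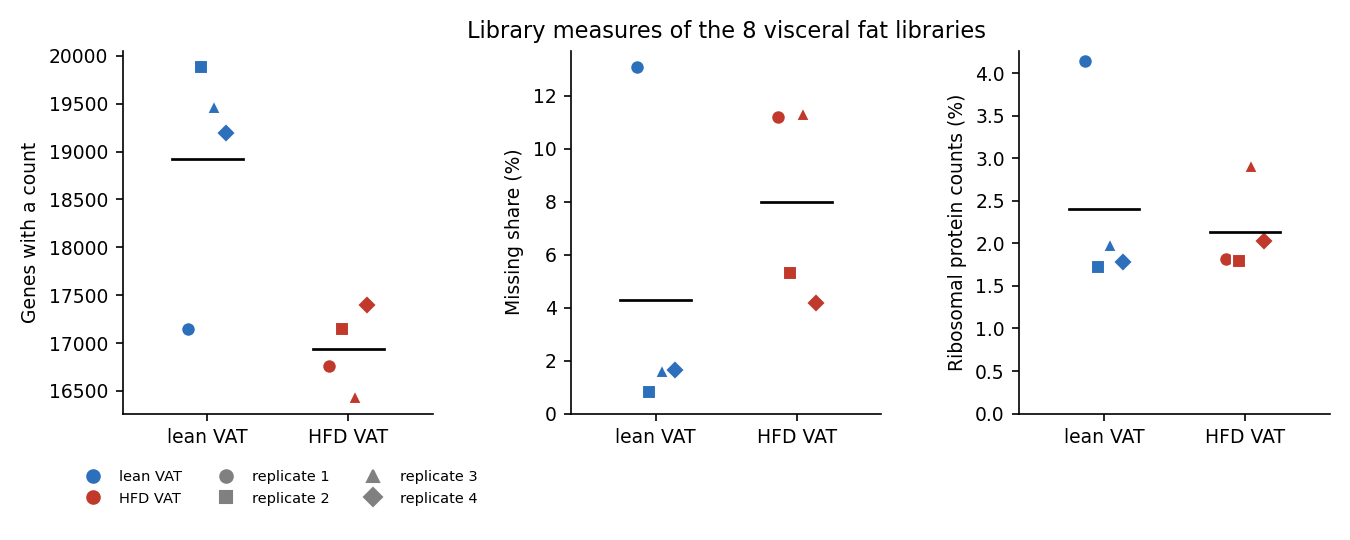
Genes with a count (left axis does not start at 0), percent of well-expressed genes missing, and percent of counts in ribosomal protein genes, in each of the 8 visceral fat libraries; symbols are replicates and bars are group means. Lean replicate 1 has 13.1% missing and 4.14% ribosomal counts, while lean replicates 2 to 4 lie at or below 1.65% and 1.99%.

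Few genes passed the test, and none of them was well measured. Well-measured genes are the 4435 with a mean of at least 50 CPM over the 8 libraries, a filter that a gene can also pass through the diet in which it is high. Of the 15675 genes, 8 fell on HFD (0.051%) and 1 rose (0.00638%), all of them under 50 CPM on average. Without adjustment 325 genes were higher and 941 lower at p under 0.05. Among the well-measured genes edgeR called 0, with 152 higher and 98 lower at an unadjusted p under 0.05 and a smallest adjusted p of 0.0728. DESeq2 called 66 of them, 53 higher and 13 lower, and limma voom with quality weights called 20, all higher. In bulk RNA, fewer cells that express a gene and less RNA per cell cannot be told apart, here or in any result below.

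In 5 of the 8 genes that fell, all 4 HFD libraries had 3 counts or fewer. Cyb5r1, a cytochrome b5 reductase, had 0.0218, 0, 0 and 0 CPM on HFD and 47.1, 21.997, 60.5 and 29.4 CPM in lean mice, which is 1 count in all on HFD against 7460 in lean mice (edgeR adjusted p = 0.0024). Ndufaf2, an assembly factor of respiratory complex I, had 0.0218, 0, 0 and 0 CPM on HFD and 56.4, 6.73, 12.4 and 12.02 CPM in lean mice, which is 1 count against 3978 (edgeR adjusted p = 0.0128). Traj61, a joining segment of the receptor alpha chain, had no HFD count and 4.14, 1.75, 0.660 and 1.08 CPM in the lean libraries (edgeR adjusted p = 0.0128), which against a floor of 3 counts per library is at least 26.9-fold lower on HFD. These 3 genes kept an adjusted p under 0.05 when any 1 of the 16 libraries was left out, but none of the 9 calls was kept when edgeR was fitted to the visceral fat libraries alone (adjusted p = 0.196 for Cyb5r1, 0.223 for Ndufaf2 and 0.266 for Traj61). voom did not call Cyb5r1 (adjusted p = 0.1), and Traj61 was lost with no filter on low counts (adjusted p = 0.154). Slc49a4 (2 counts on HFD against 5631), Klhl21 (5 against 3799) and Ddx11 (1 against 10409) were likewise near 0 on HFD, with adjusted p-values of 0.0345, 0.0345 and 0.0487 from edgeR.

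Gabpb2, a beta subunit of the GABP transcription factor, had 0.0873, 0.137, 0.107 and 0.932 CPM on HFD and 17.8, 32.96, 22.4 and 40.7 CPM in lean mice (edgeR adjusted p = 0.0345). H2-Ob, a chain of the MHC class II regulator H2-O that B cells express, had 0.0873, 0.0910, 0.161 and 0.0466 CPM on HFD and 0.611, 20.5, 1.68 and 30.8 CPM in lean mice (edgeR adjusted p = 0.0345). Of the 20 genes of the B and plasma cell list, 13 stayed under 1 CPM in all 8 libraries. The list summed to 169 to 360 CPM on HFD and 86.3 to 241 CPM in lean mice, most of it Ighm. Of its other members Cd79b reached 32.5 CPM in lean replicate 2 and 10.7 CPM in HFD replicate 4, and Cd22 reached 13.3 CPM in lean replicate 3 and at most 0.0466 CPM on HFD. The part of B cell RNA in the fall of H2-Ob was not tested. The gene that rose, the pseudogene Selenot-ps, had 67 counts on HFD and 0 in lean mice, at no more than 0.932 CPM in any library (edgeR adjusted p = 0.0487), and how reads were shared with its parent gene is not given in the sources used here. Each of these 6 calls other than Cyb5r1, Ndufaf2 and Traj61 was lost in at least 13 of the 16 fits that left out 1 library, with adjusted p-values of up to 0.181.

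Calls over all genes moved with single libraries: without HFD replicate 4 there were 40, and without lean replicate 1 there were 23. Across all genes, 57 had at least 10 CPM on average in lean mice and 3 counts or fewer in each of the 4 HFD libraries, and 10 had the reverse pattern. The HFD libraries also had fewer genes with a count on average, as given above; the part of that difference in these falls was not tested. Even among well-measured genes 256 were at 3 counts or fewer in at least 1 HFD library and 142 in at least 1 lean library.

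Well-measured genes were therefore read library by library. For 109 of the 4435 (2.46%) each of the 4 HFD libraries was above each of the 4 lean ones, and for 46 (1.04%) each was below. With size factors by relative log expression (RLE) in place of TMM the counts were 157 and 30, and with upper quartile normalisation 125 and 43. With no filter on low counts they were 127 and 40, and with a filter of 5 CPM in 4 libraries 101 and 52. With only genes of at least 50 CPM in the fit they were 94 and 52, and the median over all well-measured genes was then 0.005. The median log2 fold change was 0.76 in the 109 genes and -1.06 in the 46, against 0.06 over all well-measured genes. Differences depended on level. Of the 316 genes with at least 500 CPM, 33 were higher without overlap and 0 lower, and 73.1% had a positive log2 fold change (median 0.18). Of the 1982 genes with 50 to 100 CPM, 29 were higher and 30 lower without overlap, and 51.2% were positive (median 0.02). Leaving out lean replicate 1 gave 220 higher and 109 lower genes, and because 3 libraries are easier to separate from 4 than 4 from 4, that count is larger by construction.

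**Figure D2:**
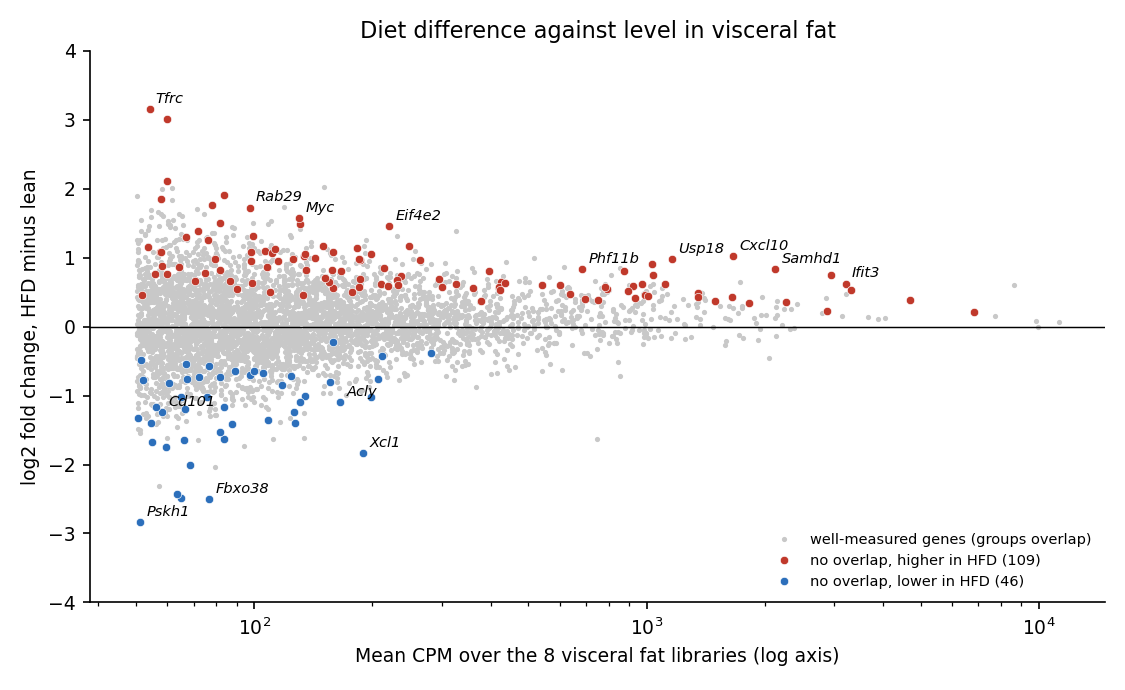
Log2 fold change of HFD minus lean in visceral fat against mean CPM over the 8 libraries (log axis), 1 point for each of the 4435 well-measured genes, with the 109 genes higher and the 46 lower without overlap in colour. Above 500 CPM the coloured points are all on the HFD side (33 against 0).

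Most interferon-stimulated genes had higher mean levels on HFD, although none passed edgeR's test. Of the 51 antiviral genes of the list 45 were well measured, and 40 of these had a positive log2 fold change, with a median of 0.43 beside 0.06 over all well-measured genes and a range from -0.63 to 2.02. In 8 of the 45 (17.8%, beside 2.46% of all well-measured genes) the 4 HFD libraries lay above the 4 lean ones: Phf11b, Usp18, Mx2, Ifit3, Ifit1bl1, Zbp1, Slfn1 and Slfn2. None was lower without overlap. The list holds abundant genes, summing to 36210 to 41110 CPM on HFD and 27330 to 29550 CPM in lean mice. Abundant genes leaned upward more often, as given above. Of all genes with at least 500 CPM, 10.4% were higher without overlap, 73.1% were positive and the median was 0.18. None of the 45 passed edgeR's test, while voom called 5 of them (Phf11b, Usp18, Ifit3, Zbp1 and Isg20) and DESeq2 called 3 (Phf11b, Slfn2 and Ifi204), all higher. The median was 0.43 without lean replicate 1 too, with 40 genes still positive.

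Promoters of interferon-responsive genes often hold the interferon response element. The 5 stretches from RefSeq promoters below are printed 5′ to 3′ on the gene's own strand as examples chosen for the element, because their genes are interferon-linked, were higher on HFD without overlap and hold the interferon response element, GAAA then any 2 bases then GAAA, which is in capitals on either strand (on the other strand it reads TTTC, any 2 bases, TTTC). Phf11b lies on the minus strand at chr14:59341341-59341420 of GRCm38.p6, with the element starting 50 bases before the start of transcription. Ifit3 lies on the plus strand at chr19:34583333-34583446 with 2 elements, 156 and 122 bases before the start. Igtp lies on the plus strand at chr11:58199482-58199555 with the element 34 bases before it, Cxcl10 on the minus strand at chr5:92349063-92349139 with the element 213 bases before it, and H2-T23 on the minus strand at chr17:36032786-36032865 with the element 124 bases before it.
Phf11b: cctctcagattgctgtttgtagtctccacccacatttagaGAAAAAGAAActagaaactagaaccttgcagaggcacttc
Ifit3: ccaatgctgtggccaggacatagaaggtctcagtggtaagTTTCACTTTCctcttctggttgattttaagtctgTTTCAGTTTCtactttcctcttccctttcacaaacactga
Igtp: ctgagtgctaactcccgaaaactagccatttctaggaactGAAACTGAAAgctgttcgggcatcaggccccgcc
Cxcl10: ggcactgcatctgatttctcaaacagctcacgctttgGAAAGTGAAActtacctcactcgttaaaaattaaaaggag
H2-T23: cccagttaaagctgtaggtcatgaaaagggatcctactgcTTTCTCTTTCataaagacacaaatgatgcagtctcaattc

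The windows searched run from 250 bases before to 50 bases after each start. The element was in 3.44% of the 32851 promoter windows of all genes, in 4.16% of the windows of well-measured genes and in 48.8% of those of the antiviral list (20 of 41). Among the 109 genes higher on HFD without overlap, 80 matched a promoter in the table, and 15 of their 115 windows (13%) held it. Among the 46 lower genes, 36 matched and 4.88% of windows (2 of 41) held it. In the higher genes that are in no interferon or MHC class I list the share was 7.62% (8 of 105). Those genes still include interferon-linked ones, such as Cxcl10 above and Samhd1, Daxx and Nt5c3 below. The AP-1 site TGANTCA, searched the same way, was in 5.22% of the windows of higher genes. That is near its 5.04% in the windows of well-measured genes, while its share of all promoters was 7.81%. In the antiviral list 9 of 41 windows held it. The NF-kB-like site, GGGA then any base then TTTCC, was in 0 of 115 windows of higher genes. Its share was 0.308% in well-measured genes and 0.411% in all promoters. A match to these letters is a description of the sequence and not evidence of binding.

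Phf11b, an interferon-inducible PHD finger protein, had 906, 814, 958 and 839 CPM on HFD and 449, 499.96, 529.8 and 495 CPM in lean mice. No HFD library came near the lean range: the means were 879 ± 65.3 CPM on HFD and 493 ± 33.5 CPM in lean mice (SD, n = 4 each), a 1.78-fold difference (log2 fold change 0.83 ± 0.17, edgeR adjusted p = 0.164). voom and DESeq2 both called it, with adjusted p-values of 2.16e-05 and 3.51e-06. Usp18, the protease that strips ISG15 from proteins and damps the interferon receptor, had 1819, 1396, 1432 and 1523 CPM on HFD and 659, 839.9, 703 and 940.2 CPM in lean mice. Its HFD mean was 1.96-fold the lean mean (log2 fold change 0.97 ± 0.46, edgeR adjusted p = 0.629).

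Ifit3, an RNA-binding antiviral effector, had 4602, 3672, 3410.4 and 3936 CPM on HFD and 1384, 2578, 3177 and 2992 CPM in lean mice. Lean replicate 1 was the lowest library here, and the log2 fold change was 0.62 ± 0.88 with it and 0.42 without it. Ifit1bl1 of the same family had 1329, 1354, 1463 and 1075 CPM on HFD and 433, 890.3, 928 and 843 CPM in lean mice, again with lean replicate 1 lowest (log2 fold change 0.75 ± 0.38, or 0.56 without it). Mx2, an antiviral GTPase, had 129, 175, 169 and 145 CPM on HFD and 3.12, 92.96, 124 and 63.2 CPM in lean mice. Its difference was 1.13 ± 1.68 with lean replicate 1 and 0.73 without it. Zbp1, a sensor of Z-form nucleic acid, had 1982, 2169.6, 1661 and 1792 CPM on HFD and 1632, 1382, 1269 and 1362 CPM in lean mice (log2 fold change 0.43 ± 0.29). The lowest HFD and the highest lean library of Zbp1 were close.

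The Schlafen genes, which restrain growth and viral replication in T cells, behaved alike. Slfn2 had 1371, 1660.1, 1652 and 1525 CPM on HFD and 1017, 1300.3, 1243 and 1029 CPM in lean mice (log2 fold change 0.44 ± 0.13). Slfn1 had 1010.1, 1168, 1409.7 and 1007 CPM on HFD and 642, 957, 912 and 840.2 CPM in lean mice (log2 fold change 0.46 ± 0.22). In both genes the lowest HFD library was close above the highest lean one. Slfn1 was 0.35 and Slfn2 0.38 without lean replicate 1. Members of the Schlafen, Ifit, Phf11 and Gbp families have close copies in the genome, and how reads were shared between copies is not given in the sources used here.

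Irf7, the amplifying transcription factor, had 4243, 3990.5, 3577 and 3914 CPM on HFD and 2473, 2849, 2788 and 2779 CPM in lean mice. The HFD mean was 1.44-fold the lean mean, with no overlap (log2 fold change 0.53 ± 0.28, edgeR adjusted p = 0.711, voom adjusted p = 8.12e-07). Isg15, a ubiquitin-like interferon product, had 941, 842, 842 and 918 CPM on HFD and 1207, 570.4, 649.8 and 603 CPM in lean mice. For Isg15 lean replicate 1 was the highest of the 8 libraries, in the opposite direction to Ifit3 and Mx2, and lean replicates 2 to 4 lay below all HFD libraries. In the JAK-STAT signalling list, 20 of 27 well-measured genes were positive (median 0.16), Irf7 was the 1 gene higher without overlap (3.7%, near the 2.46% of all well-measured genes) and 0 were lower. Where a list below has 1 such member, it is given for the gene and not as a result about the list.

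Of the interferon-inducible GTPases, which attack intracellular vacuoles, 17 of 18 were well measured and 16 had a positive log2 fold change (median 0.61). Igtp was the 1 gene without overlap, with 1231, 1506, 989 and 1005 CPM on HFD and 544, 890.03, 841 and 805 CPM in lean mice (log2 fold change 0.62 ± 0.30). Here lean replicate 1 was low in most members: without it the median was 0.34 and 15 of 17 were positive. Tgtp2, with the highest level in the list, had 2172, 1485, 1293 and 1473 CPM on HFD and 543, 1338, 1304 and 1338 CPM in lean mice, and Ifi47 had 1404, 1456, 1094 and 1291 CPM on HFD and 447, 1122, 1078 and 1149 CPM in lean mice. In both, lean replicates 2 to 4 overlapped the HFD libraries and lean replicate 1 alone was far lower.

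**Figure D3:**
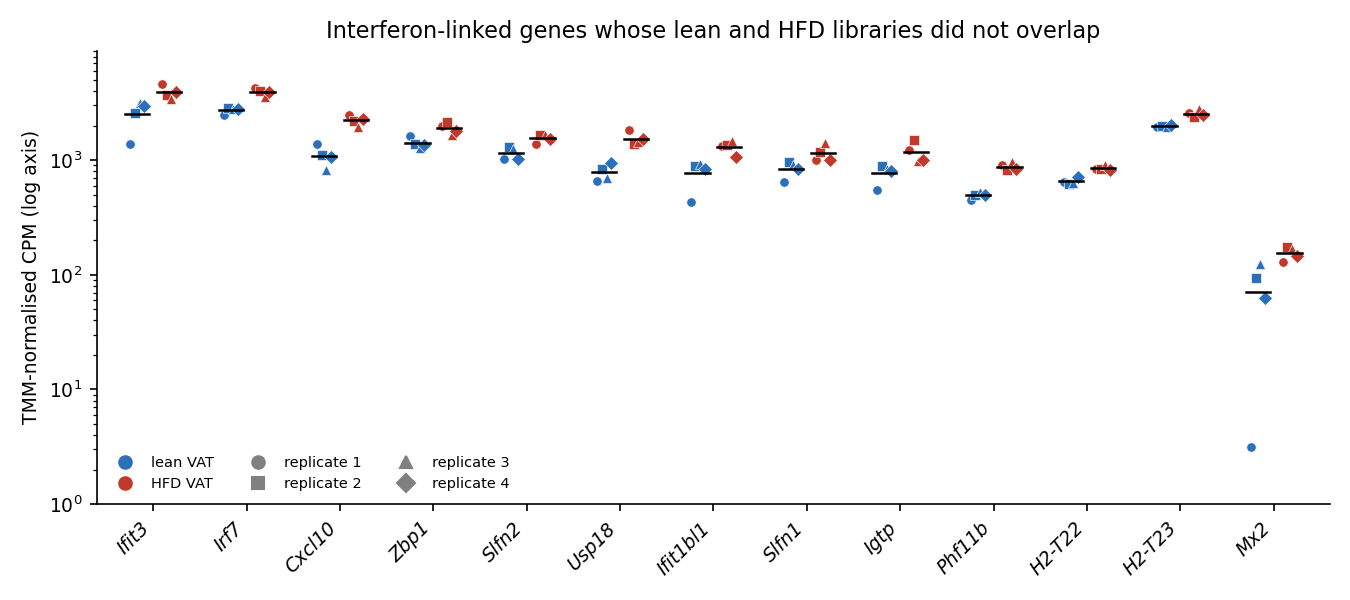
TMM-normalised CPM (log axis) of 13 interferon-linked genes whose diets did not overlap, in each lean and HFD visceral fat library; symbols are replicates and bars are means. In every gene the 4 HFD points are above the 4 lean points, and lean replicate 1 is far below the rest for Mx2 (3.12 CPM).

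MHC class I genes, which present peptides to CD8 T cells, leaned the same way by smaller amounts. Of 23 genes, all well measured, 19 were positive (median 0.21, or 0.25 with 17 positive without lean replicate 1). H2-T23, which encodes the non-classical molecule Qa-1, had 2581, 2356, 2777 and 2461 CPM on HFD and 1955, 1996, 1950.03 and 2024 CPM in lean mice. The lean libraries lay close together and all below the HFD ones (log2 fold change 0.36 ± 0.09, edgeR adjusted p = 0.325). voom and DESeq2 called H2-T23 as higher (adjusted p = 2.56e-04 and 3.54e-06). H2-T22, a related molecule, had 837, 833, 915 and 826 CPM on HFD and 643, 624, 637 and 710.2 CPM in lean mice (log2 fold change 0.38 ± 0.17). The classical genes H2-K1 and H2-D1 overlapped, with log2 fold changes of 0.09 ± 0.11 and 0.07 ± 0.08. H2-K1 had 10792, 10021, 8969 and 10889 CPM on HFD and 11935, 9175, 8736 and 8427 CPM in lean mice.

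From the genes without overlap that are in no list, 3 known interferon responders were named after their values were seen. They are examples and not a count of all such genes. Samhd1, which hydrolyses deoxynucleotides and restricts viruses, had 2512, 2691, 3229 and 2485 CPM on HFD and 1101, 1489, 1791 and 1753 CPM in lean mice (log2 fold change 0.83 ± 0.21, edgeR adjusted p = 0.328). Daxx, a chaperone of histone H3.3, had 1595, 1265, 1113 and 1432 CPM on HFD and 763, 978, 889 and 892 CPM in lean mice (log2 fold change 0.62 ± 0.26). Nt5c3, a nucleotidase, had 196, 291, 309.9 and 206 CPM on HFD and 113, 91.8, 138 and 111 CPM in lean mice (log2 fold change 1.14 ± 0.25, edgeR adjusted p = 0.185). Over the 28 alternatives Samhd1 lay between 0.64 and 0.92 and Nt5c3 between 1.03 and 1.25 on the log2 scale. All 3 were chosen for not overlapping, so leaving out libraries could hardly turn their direction. Their kept direction is therefore no further support.

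Agreement between tools was limited to a handful of such genes. The 20 well-measured genes that voom called were AW112010, Ccrl2, Cd69, Cxcl10, Daxx, Gzmb, H2-T23, Ifit3, Irf7, Isg20, Lilrb4b, Mndal, Ms4a4b, Ms4a4c, Phf11b, Samhd1, Shisa5, Ubb, Usp18 and Zbp1. DESeq2 also called 8 of them: Ccrl2, Cd69, H2-T23, Mndal, Ms4a4b, Phf11b, Samhd1 and Shisa5. It gave no adjusted p for Cxcl10 and Lilrb4b, so it could not call them. In 16 of the 20 the diets did not overlap, where 2.46% of all well-measured genes were higher and 1.04% lower without overlap. The voom calls and the overlap were read from the same visceral fat libraries, so neither is independent support for the other. edgeR, which estimated a common dispersion of 1.52 over all genes of the 16 libraries, called none of the 20.

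Killer genes were expressed on both diets, and in most of them the diets overlapped. Gzmb, the protease granzyme B, had 15677, 9812, 6821 and 9506 CPM on HFD and 4742, 7250.4, 5349 and 10244 CPM in lean mice. Only HFD replicate 1 was above the highest lean library (log2 fold change 0.60 ± 1.29, edgeR adjusted p = 1.0), although voom called the gene at an adjusted p of 5.13e-05. Gzmk, granzyme K, had 136, 133, 169.7 and 117 CPM on HFD and 87.997, 111, 127 and 129 CPM in lean mice. Prf1, the pore protein perforin, had 111, 196, 109 and 144 CPM on HFD and 253, 178, 64.8 and 247 CPM in lean mice, and lean replicate 3 was the lowest of the 8. Klrk1, the activating receptor NKG2D, had 1994, 1527, 1822 and 1811 CPM on HFD and 1007, 1534, 1685 and 1593 CPM in lean mice, with lean replicate 1 the lowest. In the cytotoxic list of 18 well-measured genes the median was 0.04 (0.02 without lean replicate 1), 10 genes were positive, and Srgn, the proteoglycan core that packs granules, was the 1 gene without overlap. Srgn had 968, 1073, 1274 and 1333 CPM on HFD and 829, 752, 941 and 883 CPM in lean mice (log2 fold change 0.45 ± 0.18).

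Receptor and checkpoint genes showed separation in a few members. Cd27, a costimulatory receptor, had 314, 321, 409 and 396 CPM on HFD and 165, 271, 304 and 224 CPM in lean mice (log2 fold change 0.58 ± 0.18, or 0.43 without lean replicate 1). Ubash3a, which dampens receptor signalling, had 219.7, 209, 212 and 193 CPM on HFD and 82.5, 166, 186 and 152 CPM in lean mice (log2 fold change 0.50 ± 0.22, or 0.31 without lean replicate 1). Ctla4, an inhibitory receptor, had 128, 114, 113 and 125 CPM on HFD and 74.2, 99.5, 77.2 and 57.7 CPM in lean mice (log2 fold change 0.64 ± 1.81). The diets did not overlap in any of these 3. The costimulatory list had 9 of 11 well-measured genes positive (median 0.41) with Cd27 alone without overlap, and the receptor complex list had 10 of 14 positive (median 0.13, or 0.25 with 11 positive without lean replicate 1).

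Pdcd1, the inhibitory receptor PD-1, had 139, 117, 134 and 270.5 CPM on HFD and 58.2, 172, 145 and 202 CPM in lean mice and overlapped (log2 fold change 0.20 ± 1.83). Tox, a factor of T cell exhaustion, was not well measured, with 0, 0.455, 14.6 and 0 CPM on HFD and 59.4, 19.8, 13.1 and 14.1 CPM in lean mice. Nr4a1, an early product of receptor stimulation, was not well measured either, with 63.8, 9.94, 1.77 and 15.9 CPM on HFD and 0, 8.38, 6.79 and 22.3 CPM in lean mice. No diet difference could be told from the spread of the libraries in Pdcd1, Tox or Nr4a1. Crem, a cyclic AMP-responsive factor, had 410.2, 405, 739 and 459.5 CPM on HFD and 346, 328, 386 and 290.3 CPM in lean mice without overlap, and 1 HFD library carried much of the difference (log2 fold change 0.58 ± 0.99).

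Retention and homing genes split. Cd69, which holds T cells in tissue and marks activation, had 1059, 1186, 1057 and 1159.5 CPM on HFD and 441, 697, 619.7 and 788 CPM in lean mice. No lean library came near the HFD range, and the means were 1115 ± 67.05 CPM on HFD and 636 ± 147 CPM in lean mice (SD, n = 4 each) (log2 fold change 0.81 ± 0.23, edgeR adjusted p = 0.353). voom and DESeq2 called Cd69 as higher (adjusted p = 0.00139 and 0.019), and the difference was 0.67 without lean replicate 1. Cxcr3, a receptor for the interferon-induced chemokines, had 781, 701, 1000.4 and 688 CPM on HFD and 453, 686, 595 and 658 CPM in lean mice and barely separated (log2 fold change 0.41 ± 0.19, or 0.12 without the 3 libraries of largest missing share, HFD replicates 1 and 3 and lean replicate 1).

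Cd101, a surface protein of resident cells, was lower on HFD, with 13.8, 34.97, 52.5 and 37.1 CPM on HFD and 99.4, 88.4, 75.7 and 64.05 CPM in lean mice (log2 fold change -1.24 ± 0.45). Itgae, the integrin chain CD103 of resident cells, was not well measured, with 0.0218, 28.01, 29.1 and 1.77 CPM on HFD and 5.86, 11.7, 19.4 and 26.1 CPM in lean mice. The residency list of 17 well-measured genes had 9 positive and a median of 0.05 (7 and -0.06 without lean replicate 1), and Cd69 and Cd101 went opposite ways within it. Among genes of recirculating cells, Klf2 had 154, 214, 203 and 224 CPM on HFD and 359, 217, 133 and 234 CPM in lean mice and Ccr7 had 186, 147, 167 and 335 CPM on HFD and 181, 184, 137 and 213 CPM in lean mice. The diets overlapped in Klf2 and Ccr7, which encode the egress factor KLF2 and the lymph node homing receptor CCR7.

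Cd44, a mark of experienced cells, had 106, 142, 60.1 and 84.9 CPM on HFD and 35.9, 226, 164 and 53.1 CPM in lean mice, with a wide range among the lean libraries alone. Id2, a regulator of effector cells, had 1101, 951, 779 and 965 CPM on HFD and 1413, 974, 835 and 1031 CPM in lean mice. The diets overlapped in both. Il2rg, the common gamma chain of receptors for IL-2, IL-7 and IL-15, had 1005, 953, 1012 and 1299 CPM on HFD and 806, 853, 734 and 808 CPM in lean mice without overlap (log2 fold change 0.41 ± 0.11, edgeR adjusted p = 0.35, DESeq2 adjusted p = 1.10e-04). Ly6c1, a surface protein of interferon-exposed and memory cells, had 281, 152, 171 and 155 CPM on HFD and 117, 113, 107 and 147 CPM in lean mice without overlap (log2 fold change 0.65 ± 0.38), and HFD replicate 1 was far above the other 7 libraries.

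Chemokine and cytokine ligands differed in both directions. Cxcl10, an interferon-induced chemokine that draws CXCR3-bearing cells, had 2488, 2213, 1929 and 2272 CPM on HFD and 1393, 1111, 824 and 1062 CPM in lean mice. The HFD mean was 2.03-fold the lean mean, with no overlap (log2 fold change 1.02 ± 1.39, edgeR adjusted p = 1.0, voom adjusted p = 1.03e-04). In fat the SDs were 230 CPM on HFD and 233 CPM in lean mice. In LN, which shares the estimate of spread, the mean of Cxcl10 was 0 CPM on HFD and 2.70 CPM in lean mice. Tnfsf8, the CD30 ligand, had 81.7, 154, 117 and 72.4 CPM on HFD and 0, 19.5, 22.1 and 11.3 CPM in lean mice, so that its difference (3.01 ± 1.18 on the log2 scale) came from low lean libraries. Xcl1, a chemokine for cross-presenting dendritic cells, was lower on HFD without overlap, with 106, 118, 31.6 and 75.6 CPM on HFD and 508, 209, 146 and 318 CPM in lean mice. Its log2 fold change was -1.83 ± 0.89 (edgeR adjusted p = 0.643), or -1.43 without lean replicate 1.

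Ccl5, a chemokine stored by memory cells, had 1494, 1628, 2273 and 1805 CPM on HFD and 2994, 1674, 2073 and 1503 CPM in lean mice. Ifng, type II interferon itself, had 107, 205, 248 and 258 CPM on HFD and 256, 270.3, 260.5 and 242 CPM in lean mice. Tnf had 10.6, 145, 107 and 159 CPM on HFD and 116, 131, 168 and 250.01 CPM in lean mice. In Ifng and Tnf HFD replicate 1 was the lowest of the 8 libraries, the other 3 HFD libraries were within or near the lean range, and the log2 fold changes were -0.33 ± 1.82 and -0.66 ± 2.07. Ccl5 overlapped too (log2 fold change -0.20 ± 0.25).

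**Figure D4:**
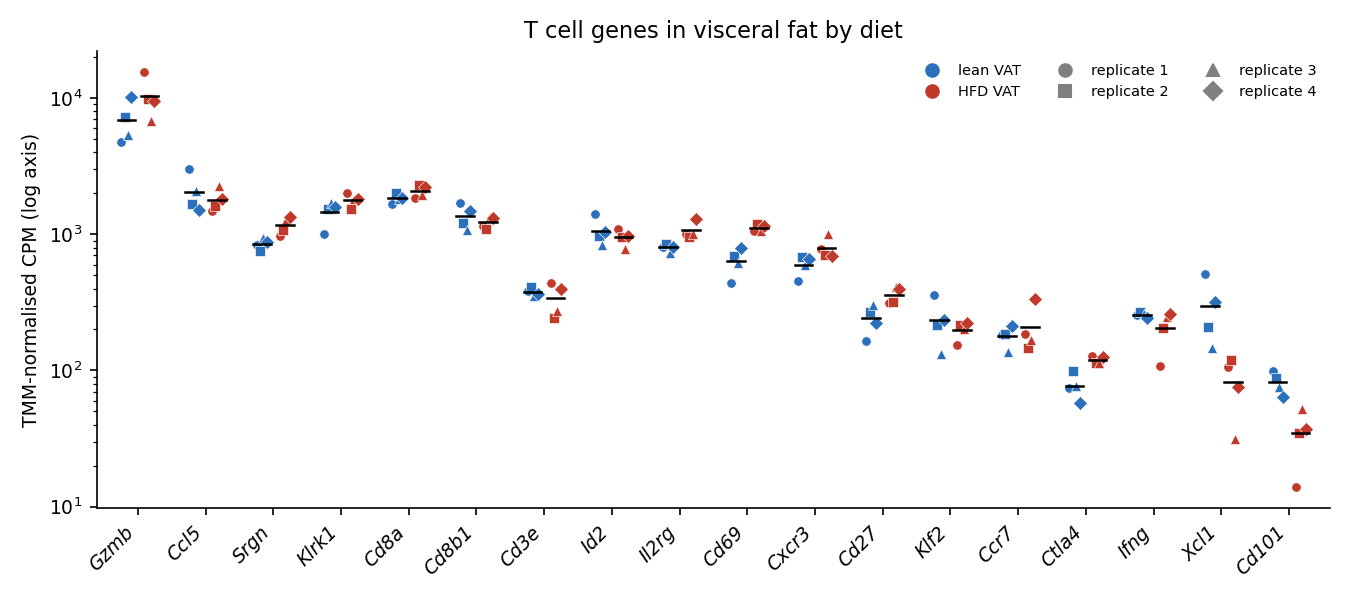
TMM-normalised CPM (log axis) of 18 T cell genes in each lean and HFD visceral fat library; symbols are replicates and bars are means. Srgn, Il2rg, Cd69, Cxcr3, Cd27 and Ctla4 separate upward on HFD, Xcl1 and Cd101 separate downward, and the other 10 genes overlap.

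Growth and nutrient genes had members whose diets did not overlap, though the gap was narrow in Myc and, further below, in Dkc1. Myc, the growth regulator, had 305, 104, 179.9 and 190.3 CPM on HFD and 35.9, 84.2, 51.5 and 90.8 CPM in lean mice. All HFD libraries were above the lean ones, by 1.57 ± 0.42 on the log2 scale (edgeR adjusted p = 0.35, DESeq2 adjusted p = 0.00545), or by 1.37 without lean replicate 1 and 0.98 without the 3 libraries of largest missing share. Tfrc, the transferrin receptor that imports iron, had 155, 114, 71.96 and 47.3 CPM on HFD and 0.0226, 25.7, 0.106 and 17.7 CPM in lean mice. Its lean level was near 0 in replicates 1 and 3, so the log2 fold change of 3.16 ± 1.83 rests partly on missing counts. Cdk6, a G1 kinase, had 248, 67.7, 131 and 81.8 CPM on HFD and 35.4, 48.9, 15.99 and 40.04 CPM in lean mice (log2 fold change 1.91 ± 1.27).

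Eif4e2, a cap-binding protein that limits translation, had the smallest adjusted p of all well-measured genes. It had 419, 244, 363 and 269 CPM on HFD and 76.4, 143, 120.4 and 131 CPM in lean mice, with means of 324 ± 81.3 CPM on HFD and 118 ± 29.1 CPM in lean mice (SD, n = 4 each) (log2 fold change 1.46 ± 0.25, edgeR adjusted p = 0.0728). edgeR called it with upper quartile normalisation, with a filter of 5 CPM in 4 libraries and without HFD replicate 4, and DESeq2 called it (adjusted p = 7.36e-07) while voom did not (adjusted p = 0.0538). Rab29, a small GTPase of the Golgi and lysosome, had 181, 140.4, 161 and 114 CPM on HFD and 40.5, 58.7, 29.98 and 51.2 CPM in lean mice (log2 fold change 1.73 ± 0.37, edgeR adjusted p = 0.173). Dkc1, the pseudouridine synthase dyskerin, had 127, 66.3, 71.6 and 165 CPM on HFD and 8.55, 57.1, 52.1 and 61.9 CPM in lean mice (log2 fold change 1.26 ± 0.52, or 0.91 without lean replicate 1). The amino acid, Myc and mTORC1 list as a whole had 9 of 16 genes positive (median 0.15).

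Lipid genes did not move together. Acadl, which starts the oxidation of long-chain fatty acids, had 338, 257, 179.8 and 206 CPM on HFD and 65.3, 175, 105 and 159 CPM in lean mice without overlap (log2 fold change 0.96 ± 0.41, or 0.75 without lean replicate 1). Cpt1a, which brings fatty acids into mitochondria, had 29.9, 58.7, 134 and 67.2 CPM on HFD and 0.746, 93.6, 55.1 and 99.3 CPM in lean mice and overlapped. Dgat1, the last enzyme of triglyceride synthesis, had 959, 1008, 843 and 1213 CPM on HFD and 1083, 935, 1011 and 735 CPM in lean mice and overlapped (log2 fold change 0.10 ± 0.44). Acly, which makes cytosolic acetyl-CoA for lipid synthesis, was lower on HFD without overlap. It had 84.3, 142, 64.7 and 131 CPM on HFD and 226, 271, 209 and 195 CPM in lean mice (log2 fold change -1.09 ± 0.34, edgeR adjusted p = 0.411), and the value without lean replicate 1 was -1.09 too.

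The fatty acid oxidation list had 11 of 13 well-measured genes positive (median 0.30), but 7 of 13 (median 0.12) without lean replicate 1, while 7 cholesterol genes had a median of -0.16 with 2 positive. Irs2, an adaptor of the insulin receptor, was lower without overlap, with 92.9, 155, 81.5 and 126 CPM on HFD and 246, 222, 164 and 161 CPM in lean mice (log2 fold change -0.80 ± 0.37). Atp5c1, a subunit of ATP synthase, was higher without overlap, with 264, 259, 356 and 303 CPM on HFD and 58.2, 232, 217 and 205 CPM in lean mice, and lean replicate 1 carried part of that (log2 fold change 0.73 ± 0.31, or 0.44 without it). The 64 well-measured nuclear genes of the respiratory chain had a median of -0.01 with 29 positive, which turned to 0.23 with 51 positive without lean replicate 1. Gapdh had 388, 437, 677 and 615 CPM on HFD and 555, 522, 475 and 435 CPM in lean mice and Hspa8, a chaperone, had 2036, 1339, 1487 and 1848 CPM on HFD and 1197, 1724, 1558 and 1711 CPM in lean mice, and both overlapped. The glycolysis list had 14 of 16 genes positive (median 0.22) and none without overlap, and 9 of 16 (median 0.07) without lean replicate 1.

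Ribosomal protein genes had a median of -0.12, with 25 of 75 positive and none without overlap. That sign belonged to lean replicate 1, whose ribosomal share was 4.14% of counts: without it the median was 0.31 and 67 of 75 were positive. Under voom, which weights libraries by quality, it was 0.17. The 6 well-measured mitochondrially encoded genes had a median of -0.38 with 2 positive, or -0.12 with 3 positive without lean replicate 1.

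Proteasome genes Psmc5 and Psmd14, subunits of the regulatory particle, were the 2 of 30 in their list without overlap (6.67%, beside 2.46% of all well-measured genes). Psmc5 had 258, 284, 252 and 326 CPM on HFD and 159.9, 204, 247 and 126 CPM in lean mice (log2 fold change 0.60 ± 0.26) and Psmd14 had 257, 215, 197 and 175 CPM on HFD and 76.1, 114, 136 and 158 CPM in lean mice (log2 fold change 0.80 ± 0.38). Nr3c1, the glucocorticoid receptor, had 493, 488, 597 and 426 CPM on HFD and 310.4, 358, 411 and 304 CPM in lean mice without overlap (log2 fold change 0.53 ± 0.30, with 0.81 in LN).

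Of the 46 genes lower without overlap 4 (8.7%) are in a list (Acly, Cd101, Irs2 and Xcl1), and of the 109 higher genes 30 (27.5%) are, where 763 of the 4435 well-measured genes (17.2%) are. The rest have varied roles and lower levels, and the examples that follow were named after their values were seen. Fbxo38, a ubiquitin ligase subunit known for the turnover of PD-1, had 8.07, 47.5, 2.14 and 34.2 CPM on HFD and 176, 149.9, 75.2 and 119.9 CPM in lean mice (log2 fold change -2.50 ± 0.70, edgeR adjusted p = 0.353, DESeq2 adjusted p = 0.0104). Sit1, an adaptor that restrains receptor signalling, had 0, 31.9, 35.4 and 61.1 CPM on HFD and 97.9, 90.8, 119.96 and 92.97 CPM in lean mice (log2 fold change -1.65 ± 1.09). Mbtps1, the site-1 protease that activates the sterol factors SREBP, had 56.5, 27.5, 0.161 and 84.2 CPM on HFD and 165, 126, 96.3 and 99.7 CPM in lean mice (log2 fold change -1.53 ± 0.92). HFD replicate 1 or 3, the libraries with the larger missing share, were lowest in all 3 genes.

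Racgap1, which organises cell division, had 42.99, 13.2, 0.0536 and 23.2 CPM on HFD and 79.4, 116, 88.5 and 145 CPM in lean mice (log2 fold change -2.43 ± 0.97). Pskh1, a serine kinase, had 0.0654, 26.2, 2.06 and 21.9 CPM on HFD and 102, 84.8, 101 and 70.8 CPM in lean mice (log2 fold change -2.83 ± 1.04). Both had an HFD library near 0. Neat1, a noncoding RNA of nuclear paraspeckles, had counts in every library. It had 119.8, 219, 146 and 132 CPM on HFD and 228, 291, 262 and 259 CPM in lean mice, and its log2 fold change was -0.76 ± 0.23 (edgeR adjusted p = 0.411). Without the 3 libraries of largest missing share the log2 fold change of Ighm was 0.34, Ifit3 0.40, Ifit1bl1 0.47, Slfn1 0.28, Dpp4 0.46, Atp5c1 0.38, Mbtps1 -0.93, Ly6c1 0.34, Cdk6 1.11, Crem 0.38, Irs2 -0.36, Acly -0.71 and Xcl1 -1.19, each smaller by over 1.5 times than with all libraries. Likewise Ubash3a was 0.27, Fbxo38 -1.48 and Pskh1 -1.81. Neat1 changed less, to -0.61. Fbxo38, Pskh1 and Neat1 were all still lower on HFD.

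Markers of other cell types that could ride along with sorted T cells from fat were low, with exceptions. Ighm, the IgM heavy chain, had 359.8, 169, 336 and 171 CPM on HFD and 85.6, 187, 83.2 and 137 CPM in lean mice (log2 fold change 1.07 ± 0.30), while Igkc had no count and Cd79a at most 1.04 CPM. Dpp4, which T cells and fibroblasts both express, had 271, 268, 478 and 333 CPM on HFD and 20.6, 184, 182 and 296 CPM in lean mice (log2 fold change 0.98 ± 0.50, or 0.62 without lean replicate 1). Of the 15 genes of the fibroblast, preadipocyte and mesothelial list 10 stayed under 1 CPM in all 8 libraries, and the list summed to 269 to 518 CPM on HFD and 49.9 to 313 CPM in lean mice, most of it Dpp4 except in lean replicate 1. Within it Dcn reached 40.4 CPM in 1 HFD library, while Gsn had 0, 0, 0 and 0.349 CPM on HFD and 16.5, 9.897, 11.8 and 16.4 CPM in lean mice. Of the dendritic cell list, Xcr1 reached 51.9 CPM, Itgax 108.2 CPM in HFD replicate 2 and H2-Ab1 128.1 CPM in HFD replicate 3, with the list at 92.0 to 278 CPM on HFD and 113 to 197 CPM in lean mice. Trdc, the constant segment of the receptor delta chain, had 413, 407, 380.3 and 334 CPM on HFD and 349, 270.3, 309 and 356 CPM in lean mice, and the 10 genes of the gamma delta T cell list summed to 896 to 1150 CPM on HFD and 760 to 843 CPM in lean mice, without overlap. Ighm, Dpp4 and the gamma delta list were on average higher on HFD as the interferon genes were, and their part in those differences was not tested.

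The diet difference was set beside that of LN for the same 4435 genes. In LN 47 genes (1.06%) were higher and 64 (1.44%) lower on HFD without overlap, and edgeR called 0 of the 15675 genes, with 217 higher and 312 lower at an unadjusted p under 0.05, where DESeq2 called 236 and voom 3. Between the tissues 3 genes were higher in both without overlap, 1 was lower in both, and 1 went opposite ways. The median over the antiviral list was 0.43 in fat and -0.03 in LN (40 and 21 of 45 positive), and over the GTPases 0.61 and -0.05. Tested gene by gene, the diet effect differed between the tissues for 3 of 15675 genes (0.0191%): Cyb5r1, Ndufaf2 and Traj61, all lower in fat. No well-measured gene passed it with edgeR (smallest adjusted p 0.141, 133 higher and 64 lower in fat at an unadjusted p under 0.05), so no well-measured gene named above was shown to differ by diet more in fat than in LN.

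The 2 most abundant members of each list, 75 genes in all, were read whatever their result. In 7 of them (9.33%, near the 10.4% of all genes with at least 500 CPM) the HFD libraries lay above the lean ones (Acadl, Cd69, Cxcl10, Ifit3, Il2rg, Irf7 and Nr3c1), in 1 below (Acly), and 67 overlapped, with log2 fold changes between -0.57 and 0.64 and 50 of them positive.

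**Figure D5:**
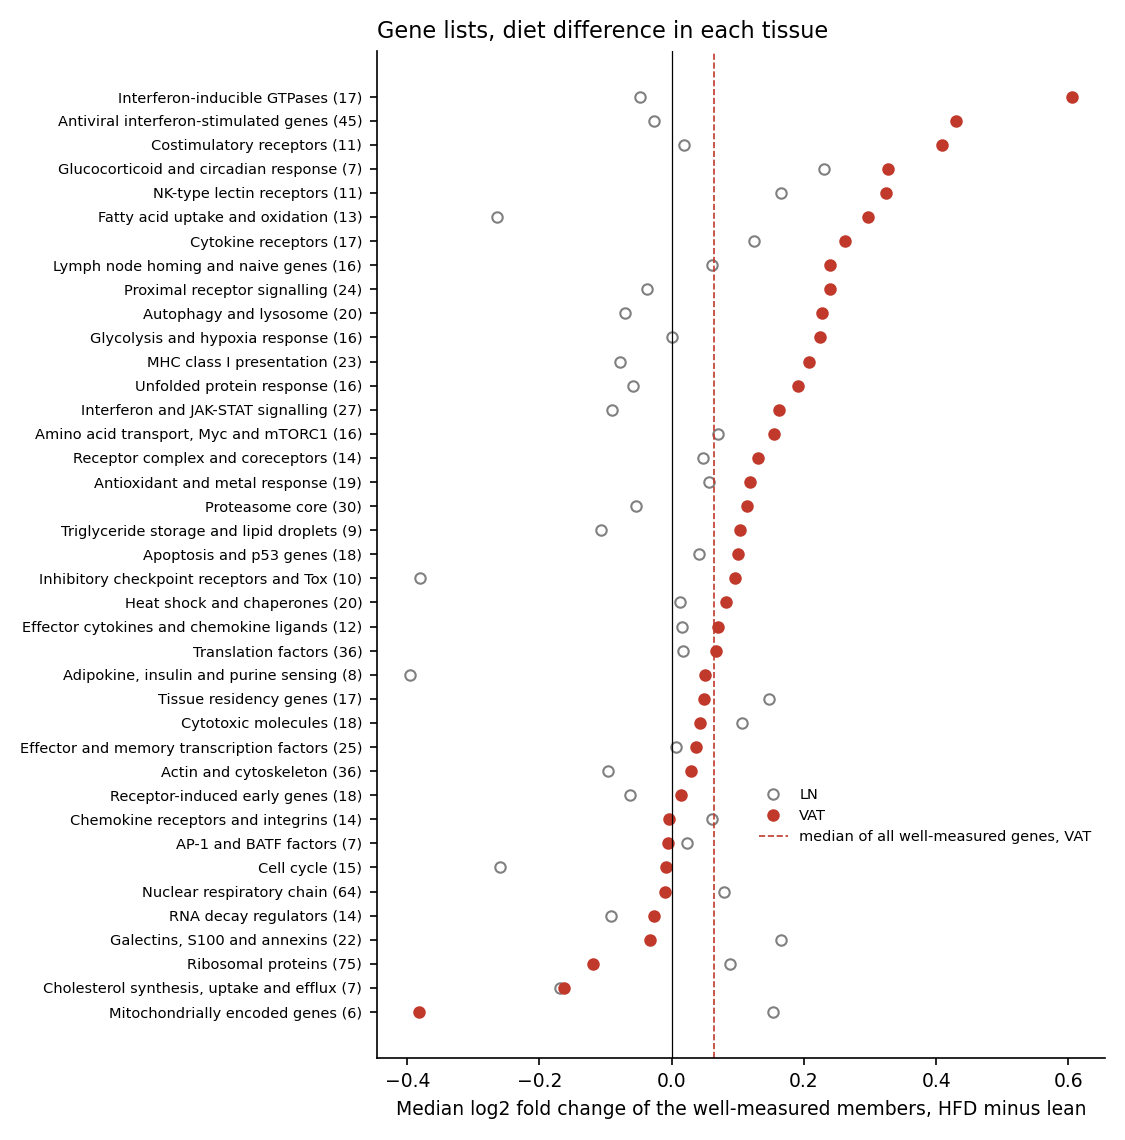
Median log2 fold change of HFD minus lean over the well-measured members of each gene list (number of members in brackets), in visceral fat (filled) and LN (open); the dashed line is the median over all well-measured genes in fat (0.06). Interferon-inducible GTPases (0.61) and antiviral genes (0.43) lie highest in fat and mitochondrially encoded genes lowest (-0.38), with 0.34, 0.43 and -0.12 without lean replicate 1. These ranks did not all hold without it. Costimulatory receptors (0.341) were then just above the GTPases (0.336). Cholesterol genes (-0.231), chemokine receptors and integrins (-0.212) and RNA decay regulators (-0.126) were below the mitochondrially encoded genes (-0.115).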

How the data were processed

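The series holds 16 RNA libraries in 1 table of raw counts for 54456 genes, deposited by the authors. Per the submitters' processing notes, kallisto 0.42.4, DESeq2 and the build GRCh38 were used; that build is human while the gene symbols are those of mouse, and how estimates became whole counts is not given in the sources used here. Groups came from the sample labels. All 16 libraries entered 1 fit in edgeR 4.0.16 (R 4.3.3): genes filtered by filterByExpr, TMM normalisation, robust quasi-likelihood tests on 4 groups, Benjamini-Hochberg adjustment over 15675 genes and a threshold of 0.05. limma 3.58.1 (voom with quality weights) and DESeq2 1.42.0 were alternatives, as were other normalisations, filters, a replicate term and left-out libraries. The scripts were tested on simulated data with known changes. Well-measured means at least 50 CPM on average over the 8 visceral fat libraries. Library measures were compared by exact permutation in SciPy 1.17.1 (Python 3.11.15, pandas 2.3.3, NumPy 2.4.6), and figures were drawn with Matplotlib 3.10.9.

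The comparison, the 39 gene lists and the named genes were chosen with earlier results of these data known. A panel of 28 genes was read whatever its result, and is given except for a few that are not reported here, a choice that did not depend on their values, together with the genes that passed the test and the most abundant list members; all other genes were named after their values were seen. Promoter windows are from RefSeq on GRCm38.p6, matched by symbol. Depth was 40212388 to 63617074 counts a library in visceral fat, and no column of the table was left unassigned.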

Additional observations from a re-analysis of the deposited data

Results flagged for a closer look

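In 180 groups of 4 libraries, 18 single libraries lay far from the other 3 of their group (Dixon's test). The test flags about 1 in 20 groups of normally distributed values. Many genes here were chosen by their values, and some groups hold 1 count against none, which the test always flags. The 18 flags therefore cannot be read against that rate. Lean replicate 1 was such a library 8 times: for its missing share (13.09%), its mitochondrially encoded share (0.3389%), its ribosomal protein share (4.142%), the share of its 20 most abundant genes (10.91%), and for Atp5c1 (58.2 CPM), Isg15 (1207 CPM), Ndufaf2 (56.4 CPM) and Tox (59.4 CPM). Among the HFD libraries, replicate 3 stood out for Crem (739 CPM), H2-T22 (915 CPM) and Tox (14.6 CPM), and replicate 4 for Il2rg (1299 CPM), Pdcd1 (270.5 CPM), Gabpb2 (0.932 CPM) and Ddx11 (0.0233 CPM). HFD replicate 1 stood out for Ly6c1 (281 CPM), Cyb5r1 (0.0218 CPM) and Ndufaf2 (0.0218 CPM), where each of the low values is 1 count against none in the other 3 HFD libraries.

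The diet effect differed between visceral fat and LN in edgeR's test of that difference for Cyb5r1 (-12.28 on the log2 scale), Ndufaf2 (-11.34) and Traj61 (-9.745). HFD visceral fat held 1, 1 and 0 counts of these genes, so the sizes depend on the prior count.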

How the results depend on the processing

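Counts of calls moved with the tool and the libraries. Of all genes in visceral fat, 9 by edgeR became 2 with no filter on low counts, 769 by DESeq2, 32 by voom, 0 with only the visceral fat groups fitted and 62 without the 3 libraries of largest missing share (range 3 to 40 with any 1 library left out). Among well-measured genes 0 became 1 with RLE, with upper quartile normalisation, with a filter of 5 CPM, without those 3 libraries and at a mean of at least 20 CPM, 66 by DESeq2 and 20 by voom (0 to 4 with 1 library left out). LN had 236 calls by DESeq2 and 3 by voom (0 to 1 with 1 library left out). The 3 genes that differed between tissues became 1 with upper quartile, with no filter and with a filter of 5 CPM, 635 by DESeq2, 6 by voom and 46 without those 3 libraries (0 to 24 with 1 left out). The cause was not tested.

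Counts without overlap and list medians under alternatives were added after seeing the data. The count of lower genes without overlap was 30 with RLE, 96 at 20 CPM and 16 at 100 CPM. Without the 3 libraries 705 were higher and 472 lower. In an alternative chosen after seeing the data, without lean replicate 1 and with only genes of at least 50 CPM, 195 were higher and 127 lower. With 1 library left out the counts were 164 to 220 higher and 70 to 121 lower. The ribosomal protein median, -0.12, reversed to 0.17 by voom, 0.16 without the 3 libraries and 0.27 in the alternative chosen after seeing the data, and ran from -0.30 to 0.31 with 1 library left out. Without lean replicate 1 the medians of other lists turned too: nuclear respiratory chain from -0.01 to 0.23, cytokine receptors from 0.26 to -0.0658, galectins from -0.03 to 0.12, cell cycle from -0.01 to 0.10, residency from 0.05 to -0.064, adipokine and insulin sensing from 0.05 to -0.0704, AP-1 factors from -0.01 to 0.0241, early genes from 0.01 to -0.0218, chaperones from 0.08 to -0.00929 and the unfolded protein response from 0.19 to -0.00111. The antiviral median stayed between 0.37 and 0.47 with 1 library left out. A fit with the replicate number as a block called 1 gene in visceral fat and 0 in the difference between tissues. Deviations of HFD and lean libraries with the same number correlated at -0.0269 to 0.0343. These pairs come from mice on different diets, so they cannot show whether fat and LN libraries of the same diet and number share a mouse. That was not tested. Below about 0.08 CPM, 3 counts of a library, differences were not detectable.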
